A study of Homo sapiens with 6 samples.

Results

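The mitochondrial ribosomal protein genes are described here across control HK-2 cells and HK-2 cells that overexpress PPM1K. A gene was taken as a member when the gene table typed it as protein-coding and its symbol consisted of MRPL or MRPS, a number and at most a single closing letter. By this rule 78 of the 31369 genes in the count table were members, 49 of the large subunit (MRPL) and 29 of the small subunit (MRPS). HK-2 cells are an immortalised line from the proximal tubule of the human kidney, and PPM1K is the mitochondrial phosphatase that activates the enzyme complex breaking down branched-chain amino acids. RNA-seq was done on 3 control samples (NC, genotype entry WT) and 3 samples transfected with a PPM1K plasmid (OE, genotype entry PPM1K overexpress). All 6 samples carry day 10 in their titles and a treatment entry of chronic kidney disease, so that neither separates the groups. The titles name short hairpins (shControl and shPPM1K), against the genotype entries, and the groups follow the genotype. The cell line entries carry a different HK number in most samples while the cell type is HK-2 in all. Both groups come from 1 cell line, the overexpressing cells were transfected with a plasmid, and no entry gives separate cultures, so p-values measure the spread between these samples, which may be technical.

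The mitochondrial ribosome translates the messenger RNAs of the mitochondrial genome, which code for core subunits of the respiratory chain and ATP synthase. Its rRNAs are encoded in mitochondrial DNA, while all of its proteins are encoded in the nucleus, made in the cytosol and imported. The small subunit binds and decodes the messenger RNA, and the large subunit forms the peptide bond. Some of the proteins descend from those of bacterial ribosomes and others were added in the mitochondrial lineage. Kidney tubule cells depend on mitochondrial ATP for transport, and inherited defects in several of these proteins disturb oxidative phosphorylation.

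PPM1K itself was counted 37, 19 and 53 times in the NC samples and 3294, 3531 and 2919 times in the OE samples, a log2 fold change of 6.39 (SE 0.13, edgeR quasi-likelihood test, adjusted p = 1.1e-18), which goes with the genotype entries and not with a short hairpin. The exact permutation test on these counts gave p = 0.1 (two-sided), the smallest value that 3 against 3 samples allow. Between 34635770 and 36116963 reads were counted per NC sample and between 36033404 and 39850802 per OE sample. NC replicate 2 stood apart, with 3551 genes counted in it alone against 449 to 766 in the other samples. Of 10 kidney tubule epithelium markers, all in the table, 4 reached an FPKM of 1 in any sample (KRT8, KRT18, PAX8 and EPCAM), with a summed FPKM of 578 to 643 in NC and 513 to 550 in OE. The proximal tubule markers CUBN, LRP2 and AQP1 had 0 to 6 counts in every sample. Of 10 markers of other kidney cell types, 8 were in the table and 1 (COL1A1, a fibroblast collagen) reached an FPKM of 1. Their summed FPKM was 1.73 to 1.88 in NC and 1.31 to 1.39 in OE, and the leukocyte marker PTPRC had 0 to 2 counts.

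Most mitochondrial ribosomal protein genes had more RNA in the OE cells, by modest amounts. All 78 passed the filter on low counts, and 45 of them (57.7%) were higher in OE at an adjusted p under 0.05 while 7 (8.97%) were lower and 26 were not called. Among all 15878 genes tested, 24.9% were called higher and 23.7% lower in the same comparison. No member passed a fold change of 2 in either direction, a limit passed by 1.73% of all genes upward and 3.79% downward. The log2 fold change, OE over NC, was positive in 64 members and negative in 14, with a median of 0.23, quartiles of 0.06 and 0.35 and a range from -0.54 to 0.80. The median over all tested protein-coding genes was 0.01. Every OE sample lay above every NC sample in 42 members, against 28.2% of all genes, and below in 10, against 27.1% of all genes. In bulk RNA, a change in the number of cells and a change in RNA per cell cannot be told apart.

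**Figure D1:**
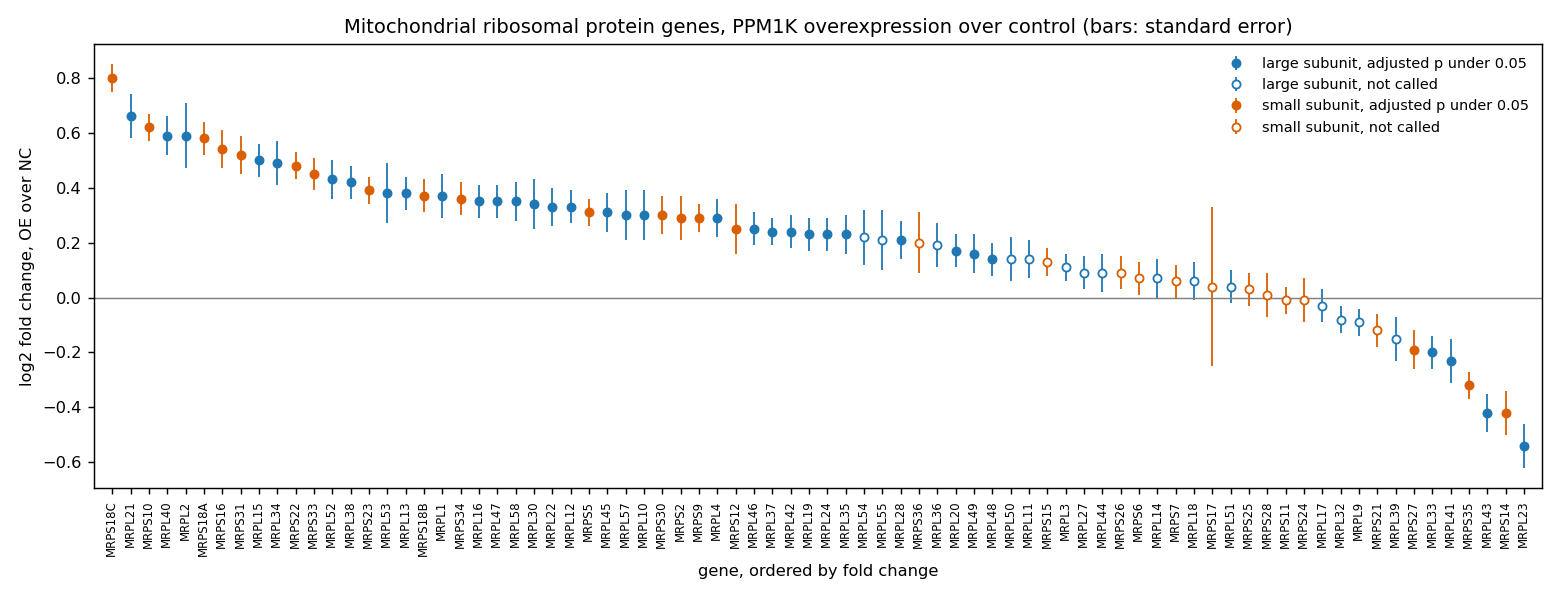
Log2 fold change, OE over NC, of each of the 78 mitochondrial ribosomal protein genes with its standard error, ordered from MRPS18C at 0.80 to MRPL23 at -0.54. Blue marks the large and orange the small subunit, filled points passed an adjusted p under 0.05 (45 above and 7 below 0), and members of both subunits are mixed along the order.

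Members of both subunits rose. In the large subunit 30 of 49 members (61.2%) were higher and 4 lower, with a median log2 fold change of 0.23 (range -0.54 to 0.66). In the small subunit 15 of 29 (51.7%) were higher and 3 lower, with a median of 0.25 (range -0.42 to 0.80). The medians thus differed by -0.02, large minus small, against an SD of 0.033 between replicates of the same difference within groups. Of the members listed with a bacterial homologue, 25 of 45 were higher and 3 lower (median 0.23). Of the others, taken as particular to mitochondria and without MRPS36, 20 of 32 were higher and 4 lower (median 0.24). Within the small subunit, taken by symbol, the medians were 0.13 for the 15 members listed with a bacterial homologue and 0.36 for the 13 listed without. The distance depends on the list, and in part on where MRPS18A and MRPS18B, diverged copies of MRPS18C, are placed. The 13 include MRPS18A and MRPS30. MRPS18A and MRPS18B were then counted among the homologues, a grouping chosen after the values had been seen. The medians of the small subunit were 0.25 for 17 members and 0.30 for 11. The corresponding medians of the large subunit were 0.23 for 30 members and 0.24 for 19. The names of some proteins do not match their place: MRPS18A and MRPS30 sit in the large subunit, and MRPS36 is a component of the oxoglutarate dehydrogenase complex. With these moved, 32 of 51 large subunit members were higher and 4 lower (median 0.23), and 13 of 26 small subunit members were higher and 3 lower (median 0.19).

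The samples within each group also differed. For each sample the median over members of the log2 deviation from the NC mean was taken. It was 0.009, -0.055 and 0.048 in the NC samples and 0.263, 0.290 and 0.160 in the OE samples. OE replicate 3 was the lowest of its group and still above all NC samples, and NC replicate 2 was the lowest of the controls. Without NC replicate 2, 41 members were higher and 6 lower, beside 22.5% and 20.6% of all genes. The medians were then 0.23 in the large and 0.26 in the small subunit. In OE replicate 3 the deviation was 0.150 in the large and 0.233 in the small subunit, and in the other OE samples it was 0.262 to 0.286 and 0.283 to 0.303. The members together took 0.412%, 0.395% and 0.416% of all counts in NC and 0.480%, 0.487% and 0.456% in OE, or 0.408% ± 0.0111 against 0.474% ± 0.0163 (SD, n = 3).

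The sequence before the gene starts was read for motifs known from genes of this kind, and a few examples are shown. Whether these motifs bear on the fold changes was not tested. RefSeq promoter windows on GRCh38.p14, from 250 bases before to 50 bases after the start, were found for 69 of the 78 members, and the first window listed per gene was used. The motifs searched, on both strands, were the ETS and GABPA core CCGGAAG, the YY1 motif AAGATGGC, the CRE TGACGTCA, and the NRF1 motif, which is GCGCA followed at once by TGCGC. The NRF1 motif was also searched with its middle base free, as GCGC, any base, then TGCGC, a form that includes the exact matches. GABPA, YY1 and NRF1 are transcription factors with many targets among nuclear genes for mitochondrial proteins. The last 120 bases before the start are given for 5 members that were higher in OE and 2 that were lower. They run in the direction of transcription, with each match that lies wholly within these bases in capitals. The 5 were picked as examples that hold matches and do not stand for all members that were higher. MRPL34 (log2 fold change 0.49), MRPL12 and MRPS5 were also higher and had no match in their windows, and MRPS18C had only an ETS core 222 bases before the start. CTTCCGG and GCCATCTT are the same ETS core and YY1 motif on the other strand.
MRPS10: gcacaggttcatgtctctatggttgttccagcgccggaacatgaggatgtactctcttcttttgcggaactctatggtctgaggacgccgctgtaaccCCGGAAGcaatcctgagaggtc
MRPS22: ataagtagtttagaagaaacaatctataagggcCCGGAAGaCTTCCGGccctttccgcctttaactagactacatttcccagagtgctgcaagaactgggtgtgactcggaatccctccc
MRPS34: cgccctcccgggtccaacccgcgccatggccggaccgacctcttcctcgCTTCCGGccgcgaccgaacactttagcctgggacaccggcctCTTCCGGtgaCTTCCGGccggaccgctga
MRPL47: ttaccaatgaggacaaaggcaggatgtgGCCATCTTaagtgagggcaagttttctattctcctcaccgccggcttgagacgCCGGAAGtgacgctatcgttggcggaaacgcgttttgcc
MRPL52: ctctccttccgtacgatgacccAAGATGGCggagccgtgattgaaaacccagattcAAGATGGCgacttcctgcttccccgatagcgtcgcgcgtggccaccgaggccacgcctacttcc
MRPL43: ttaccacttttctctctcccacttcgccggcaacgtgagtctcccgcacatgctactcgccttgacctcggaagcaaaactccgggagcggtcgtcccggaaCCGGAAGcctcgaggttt
MRPS14: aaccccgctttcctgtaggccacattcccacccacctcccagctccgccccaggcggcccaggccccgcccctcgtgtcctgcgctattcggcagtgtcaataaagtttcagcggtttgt

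The window of MRPS10 (chr6:42217862-42217981, minus strand) holds an ETS core that begins 22 bases before the start. MRPS22 (chr3:139343874-139343993, plus strand) has a pair of cores facing each other, 87 and 79 bases before the start. MRPS34 (chr16:1773135-1773254, minus strand), the member with the highest level in these cells, has cores at 71, 29 and 19 bases. MRPL47 (chr3:179604639-179604758, minus strand) combines a YY1 motif at 92 bases with an ETS core at 39, and MRPL52 (chr14:22829767-22829886, plus strand) repeats the YY1 motif at 98 and 64 bases and has an ETS core that begins 5 bases before the start and runs past it. Past the start, MRPS10 also has a YY1 motif and MRPS22 an ETS core, outside the bases shown. Of the members that were lower in OE, MRPL43 (chr10:100987498-100987617, minus strand) also has an ETS core, at 18 bases, and MRPS14 (chr1:175023426-175023545, minus strand) has no match in its full window.

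The ETS core was present in 29 of 69 member windows (42.0%), against 19.1% of the windows of 10483 tested protein-coding genes and 10.7% of all 27305 windows. The YY1 motif was present in 20 (29%), against 5.31% of tested protein-coding genes and 3.03% of all. At least 1 of the pair was found in 41 members and both in 8. The NRF1 motif with a free middle base was in 8 windows (11.6%), close to the 11.7% of tested protein-coding genes, and its exact form was in 1 (1.45%, against 2.30%). The CRE was in 0 of 69 windows, against 3.22% of tested protein-coding genes and 1.98% of all windows. By call, the ETS core was in 21 of 39 windows of members that were higher (53.8%), in 2 of 6 of those that were lower (33.3%) and in 6 of 24 of those not called (25%). The YY1 motif was in 13 of 39 (33.3%), 1 of 6 (16.7%) and 6 of 24 (25%). Between subunits the shares were near each other, 40.5% in the large and 44.4% in the small subunit for the ETS core. These are matches of letters, and binding was not measured.

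**Figure D2:**
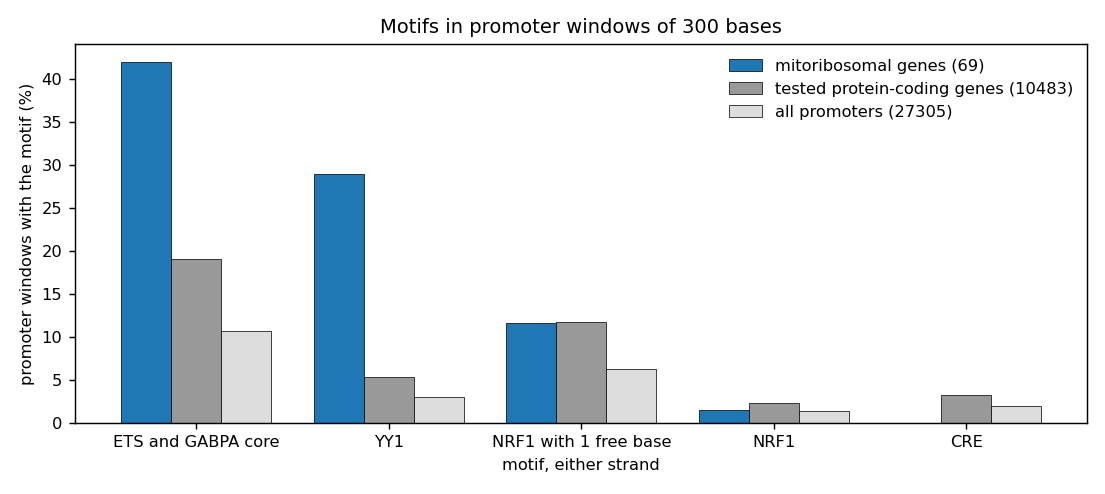
Percent of promoter windows of 300 bases that hold each motif on either strand, for 69 mitochondrial ribosomal protein genes, 10483 tested protein-coding genes and all 27305 windows. The ETS core (42.0%) and YY1 (29%) bars of the members stand above those of the other sets, and the bar of the NRF1 motif with a free base (11.6%) does not.

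Among the small subunit proteins with bacterial relatives, MRPS18C rose most. It is the mitochondrial version of bacterial protein S18, encoded at chr4:83455932-83469735 (GRCh38, GENCODE 44, plus strand). MRPS18C had 115, 117 and 122 CPM (counts scaled to library size) in NC and 213, 214 and 191 CPM in OE. The lowest OE sample lay far above the highest control, and the log2 fold change was 0.80 (SE 0.05, edgeR adjusted p = 1.2e-10), or 1.75-fold. Its paralogs are separate proteins at other places of the ribosome. MRPS18A, which sits in the large subunit, had 73.0, 63.7 and 66.1 CPM in NC and 104, 103 and 95.7 CPM in OE (log2 fold change 0.58, SE 0.06, edgeR adjusted p = 5.3e-08). MRPS18B, of the small subunit, had 58.9, 52.2 and 57.7 CPM in NC and 75.4, 75.9 and 66.6 CPM in OE (0.37, SE 0.06, edgeR adjusted p = 4.8e-05). All of the MRPS18 paralogs rose, then, with no overlap between groups and with MRPS18C first in size.

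MRPS10, at chr6:42206807-42217861 (minus strand), is the mitochondrial S10 protein of the small subunit head. Its level was 91.1, 92.4 and 92.9 CPM in NC and 138, 147 and 141 CPM in OE, a 1.54-fold rise (log2 fold change 0.62, SE 0.05, edgeR adjusted p = 1.6e-09). The SD was 0.936 CPM among the NC samples and 4.89 CPM among the OE samples, both small beside the gap. MRPS16 (chr10:73248843-73252693, minus strand), the S16 relative in which mutations cause a severe respiratory chain disease, had 29.3, 27.5 and 29.8 CPM in NC and 43.3, 43.9 and 39.2 CPM in OE (0.54, SE 0.07, edgeR adjusted p = 1.0e-06). MRPS31 (chr13:40729128-40771190, minus strand), a protein particular to mitochondrial ribosomes, had 17.7, 17.8 and 19.1 CPM in NC and 26.8, 26.7 and 25 CPM in OE (0.52, SE 0.07, edgeR adjusted p = 5.6e-06). The groups did not overlap in any of them, which was a condition of naming them. A pseudogene of MRPS31, MRPS31P5, had 139 to 253 counts per sample, so reads may be divided between the copies. The other small subunit members that rose, MRPS22, MRPS33, MRPS23, MRPS34, MRPS5, MRPS30, MRPS9, MRPS2 and MRPS12, had log2 fold changes from 0.48 down to 0.25. Of them, MRPS12, the homologue of the bacterial decoding protein S12, was the only one whose groups overlapped in CPM, and its call was lost in 3 of the 6 fits that left out a sample.

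In the large subunit MRPL21, the relative of bacterial L21, rose most. MRPL21 (chr11:68891276-68903835, minus strand) had 22.2, 21.4 and 20.1 CPM in NC and 31.9, 37.6 and 30.6 CPM in OE (log2 fold change 0.66, SE 0.08, edgeR adjusted p = 1.1e-06). OE replicate 2 was the highest, and the lowest OE sample was above all controls. MRPL40 (chr22:19432545-19436075, plus strand), a protein without a bacterial homologue, had 41.4, 35.7 and 42.0 CPM in NC and 60, 63.9 and 55.1 CPM in OE (0.59, SE 0.07, edgeR adjusted p = 4.6e-07). MRPL2 (chr6:43054029-43059438, minus strand), whose bacterial relative L2 lies near the site of peptide bond formation, was much less abundant in reads, with 5.52, 4.83 and 5.87 CPM in NC and 8.83, 8.60 and 6.91 CPM in OE. Its fold was the same as that of MRPL40 but less precise (0.59, SE 0.12, edgeR adjusted p = 4.8e-04). The other 27 large subunit members that rose spanned log2 fold changes from 0.14 (MRPL48) to 0.50 (MRPL15). MRPL15, MRPL34, MRPL52, MRPL38, MRPL13, MRPL53 and MRPL1 lay between 0.37 and 0.50. MRPL58, MRPL16, MRPL47, MRPL30, MRPL22, MRPL12, MRPL45, MRPL10 and MRPL57 lay between 0.30 and 0.35. MRPL4, MRPL46, MRPL42, MRPL37, MRPL35, MRPL19, MRPL24, MRPL28, MRPL20, MRPL49 and MRPL48 lay between 0.14 and 0.29, and the groups of MRPL28, MRPL20 and MRPL48 overlapped in CPM. When each sample was left out in turn, the calls of MRPL20, MRPL48 and MRPL49 were lost in 5 of 6 fits, that of MRPL28 in 3, that of MRPL57 in 2 and that of MRPL53 in 1.

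**Figure D3:**
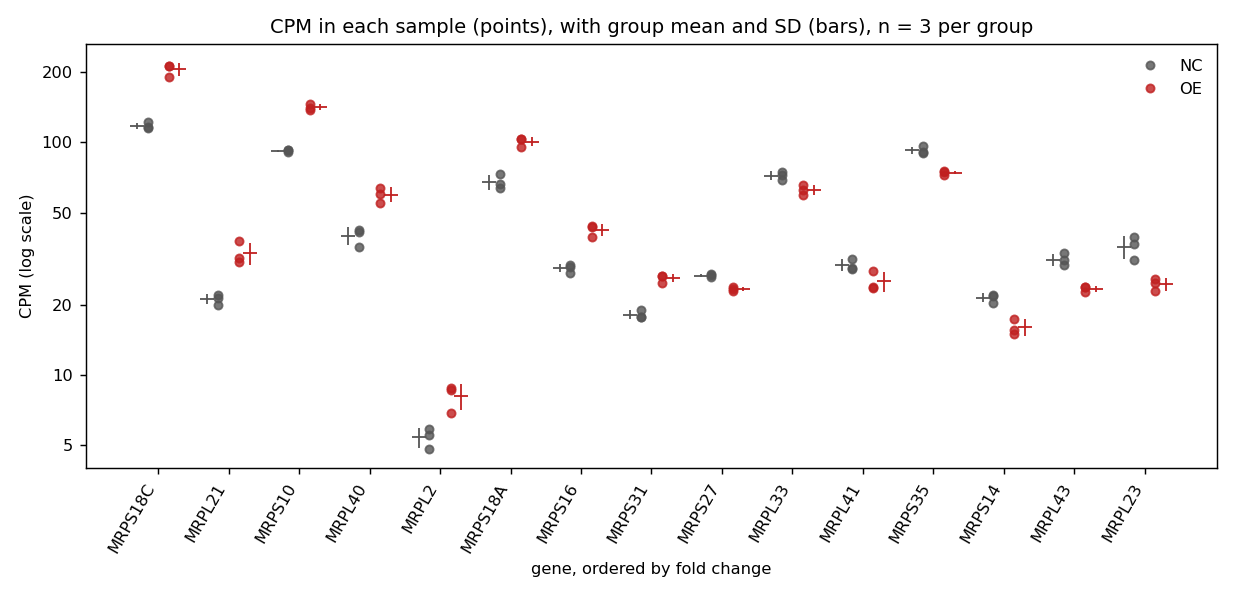
CPM on a log axis in each of the 3 NC (grey) and 3 OE (red) samples, with group mean and SD, for the 8 members with the largest rise and the 7 members that fell. Groups that do not overlap were a condition of choosing the 15 genes, and the gap is widest for MRPS18C (118 against 206 CPM on average).

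The 7 members that fell came from both subunits and included relatives of bacterial proteins as well as mitochondrial additions. MRPL23 (chr11:1947278-1984522, plus strand), the relative of a bacterial protein at the exit of the peptide tunnel, fell most. Its level was 36.7, 31.3 and 39.1 CPM in NC and 25, 25.8 and 22.9 CPM in OE (log2 fold change -0.54, SE 0.08, edgeR adjusted p = 1.2e-05). MRPL23 overlaps MRPL23-AS1 in the annotation. The sources used here do not state whether counting used strand, so the reads of MRPL23 cannot be told apart from those of MRPL23-AS1. Of the other members that fell, MRPL43, MRPS14, MRPS35, MRPL33 and MRPS27 overlap a gene on the same strand, which leaves their counts uncertain too. MRPS14 (chr1:175010789-175023425, minus strand), the S14 protein of the small subunit, had 20.5, 21.9 and 22.2 CPM in NC and 17.5, 15 and 15.7 CPM in OE (-0.42, SE 0.08, edgeR adjusted p = 2.0e-04). MRPL43 (chr10:100969458-100987515, minus strand), a large subunit protein without a bacterial homologue, had 33.4, 29.6 and 31.2 CPM in NC and 23.9, 22.7 and 23.9 CPM in OE (-0.42, SE 0.07, edgeR adjusted p = 5.8e-05). These groups were separate, with every OE sample below every control, which was a condition of naming these members. MRPS35, of the small subunit, had 90.2, 91.2 and 96.1 CPM in NC and 75.4, 74.5 and 72.8 CPM in OE (-0.32, SE 0.05, edgeR adjusted p = 2.7e-05).

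The remaining members that fell did so by less. MRPL33, the L33 relative, had 72.7, 68.7 and 74.7 CPM in NC and 65.7, 62.7 and 59.2 CPM in OE (log2 fold change -0.20, SE 0.06, edgeR adjusted p = 0.0048). MRPL41, a protein particular to mitochondria, had 28.5, 28.8 and 31.7 CPM in NC and 23.7, 28.1 and 24.0 CPM in OE (-0.23, SE 0.08, edgeR adjusted p = 0.021), so that OE replicate 2 came within reach of the controls. MRPS27, an RNA-binding protein of the small subunit, had 26.3, 26.9 and 27.1 CPM in NC and 22.9, 23.9 and 23.4 CPM in OE (-0.19, SE 0.07, edgeR adjusted p = 0.026). The calls for MRPL41 and MRPS27 were each lost in 3 of the 6 fits that left out a sample, and also with offsets for GC content and length (edgeR adjusted p = 0.14 and 0.079). Without OE replicate 1 the adjusted p was 0.11 for MRPL41 and 0.088 for MRPS27, without NC replicate 3 it was 0.12 and 0.074, and MRPS27 was also lost without NC replicate 2 (0.056) and MRPL41 without OE replicate 3 (0.051), all by edgeR.

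The 26 members not called had log2 fold changes from -0.15 (MRPL39) to 0.22 (MRPL54). In the large subunit these were MRPL54, MRPL55, MRPL36, MRPL11, MRPL50, MRPL3, MRPL44, MRPL27, MRPL14, MRPL18, MRPL51, MRPL17, MRPL32, MRPL9 and MRPL39. In the small subunit they were MRPS36, MRPS15, MRPS26, MRPS6, MRPS7, MRPS17, MRPS25, MRPS28, MRPS24, MRPS11 and MRPS21. Without a call, MRPL3 still had every OE sample above every NC sample (0.11), and MRPL32, MRPL9 and MRPL39 had every OE sample below (-0.08, -0.09 and -0.15).

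Some members have roles beside or outside the body of the ribosome. MRPL12, the stalk protein that also binds the mitochondrial RNA polymerase, had 75.3, 68.3 and 79.1 CPM in NC and 94.9, 100.1 and 84.5 CPM in OE (log2 fold change 0.33, SE 0.06, edgeR adjusted p = 2.5e-04). MRPL58, a peptidyl-tRNA hydrolase that became part of the large subunit and rescues stalled ribosomes, had 35.1, 30.0 and 33.9 CPM in NC and 42.4, 44.6 and 38.8 CPM in OE (0.35, SE 0.07, edgeR adjusted p = 4.6e-04). Both rose, with no overlap between groups. MRPS30, found in the large subunit despite its name, rose from 24.0, 24.1 and 26.8 CPM to 30.4, 31.7 and 30.0 CPM (0.30, SE 0.07, edgeR adjusted p = 0.0016). MRPS36, the oxoglutarate dehydrogenase component, had 6.09, 6.73 and 5.87 CPM in NC and 7.37, 6.70 and 7.35 CPM in OE (0.20, SE 0.11, edgeR adjusted p = 0.16), and its groups overlapped.

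Levels of different genes were compared per length, in the deposited FPKM. MRPS34, a small subunit protein particular to mitochondria, was the highest member, with 151.7, 126 and 143 FPKM in NC and 185, 188 and 172 FPKM in OE. It was called higher in the count test (log2 fold change 0.36, SE 0.06, edgeR adjusted p = 4.1e-05). MRPL51 followed with 115 ± 6.77 FPKM in NC and 119.9 ± 7.71 in OE (SD, n = 3), and MRPS26 with 89.9 ± 7.62 and 96.7 ± 4.26. Neither of these was called (0.04 and 0.09, edgeR adjusted p = 0.62 and 0.24). At the lower end stood MRPL42, MRPL30 and MRPS17, of which the first is a mitochondrial addition and the others have bacterial relatives. MRPL42 had 1.73 ± 0.0252 FPKM in NC and 2.08 ± 0.0808 in OE, and MRPL30 had 1.67 ± 0.125 and 2.14 ± 0.0721. Both were higher in the count test (0.24 and 0.34, edgeR adjusted p = 0.0039 and 0.0048). MRPS17 had 0.427 ± 0.0757 FPKM in NC and 0.453 ± 0.15 in OE, rested on as few as 25 counts in a sample and overlaps NIPSNAP2 in the annotation, so its level is uncertain. Over the 78 members the log2 fold change had a Pearson's r of -0.0557 and a Spearman's rho of -0.0931 with the log2 mean FPKM in NC, across genes that share their libraries.

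Summed over genes, the large subunit had 997, 911 and 1009 FPKM in NC and 1115, 1152 and 1057 FPKM in OE, or 972 ± 53.7 against 1108 ± 48.1 (SD, n = 3). The small subunit had 768, 697 and 760.4 FPKM in NC and 913, 931 and 868 FPKM in OE, or 742 ± 39.1 against 904 ± 32.1. Both sums were higher in every OE sample than in every NC sample. The ratio of the large to the small subunit sum was 1.30, 1.31 and 1.33 in NC and 1.22, 1.24 and 1.22 in OE, 1.31 ± 0.0152 against 1.23 ± 0.0112, so the groups did not overlap. No test was run on the ratio. A few abundant genes weigh in it: without MRPS34 it was 1.60 to 1.63 in NC and 1.52 to 1.55 in OE, and without MRPL51 1.14 to 1.17 and 1.09 to 1.10. With both left out it was 1.41 to 1.44 and 1.36 to 1.38. These exclusions were chosen after the values had been seen. With MRPS18A and MRPS30 counted in the large subunit and MRPS36 left out, the ratio was 1.48 ± 0.00944 in NC and 1.43 ± 0.0108 in OE.

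**Figure D4:**
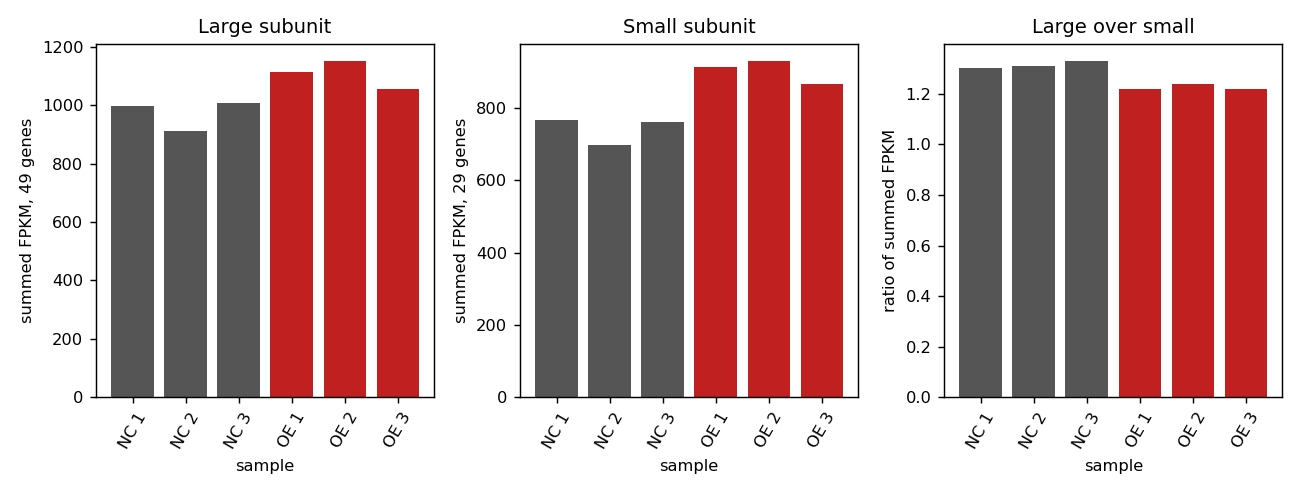
Summed FPKM of the 49 large and 29 small subunit genes and the ratio of the sums, 1 bar per sample, NC in grey and OE in red. Both sums are higher in all OE samples (large 1057 to 1152 against 911 to 1009, small 868 to 931 against 697 to 768), and the ratio is lower (1.22 to 1.24 against 1.30 to 1.33).

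The partners of these proteins were followed in gene lists. Of 5 further mitoribosomal subunits whose symbols do not match the rule, 4 rose (80.0%) and none fell, against 24.9% and 23.7% of all genes tested. The median log2 fold change of the 5 was 0.26. Those that rose were GADD45GIP1 (0.41), CHCHD1 (0.38), DAP3 (0.26), the GTP-binding protein of the small subunit, and AURKAIP1 (0.20), with edgeR adjusted p from 2.8e-06 to 0.0086. PTCD3, an RNA-binding protein of the small subunit, was not called (-0.07, edgeR adjusted p = 0.36). Neither of the rRNAs encoded in mitochondrial DNA was called. MT-RNR1, the small subunit rRNA, had 187, 298 and 224 CPM in NC and 237, 221 and 211 CPM in OE, with NC replicate 2 above all other samples (log2 fold change -0.08, SE 0.10, edgeR adjusted p = 0.52). MT-RNR2, the large subunit rRNA, had 9015, 9893 and 9778 CPM in NC and 9455, 8218 and 8286 CPM in OE (-0.14, SE 0.06, edgeR adjusted p = 0.072). Their groups overlapped, and the libraries were made with an mRNA kit.

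Of 28 tested genes for assembly of the mitochondrial ribosome and modification of its rRNA, 16 rose (57.1%) and 1 fell (3.57%), against 24.9% and 23.7% of all genes tested (median 0.27). NGRN, which is needed for the large subunit rRNA, had 11.6, 10.5 and 11.8 CPM in NC and 19.8, 20.6 and 22.3 CPM in OE (log2 fold change 0.89, SE 0.08, edgeR adjusted p = 2.0e-08). AFG3L2, a subunit of the protease that matures MRPL32, rose by 0.42 (SE 0.05, edgeR adjusted p = 4.2e-07), and MRM3, a methyltransferase of the large subunit rRNA, by 0.63 (SE 0.07, edgeR adjusted p = 4.3e-07). MRPL32 itself, the substrate of that protease, was among the members not called. RPUSD4, a pseudouridine synthase of the large subunit rRNA, was the gene that fell, from 14.8 ± 0.632 to 9.84 ± 0.712 CPM (-0.59, SE 0.09, edgeR adjusted p = 1.2e-05). MRM2 was listed but did not pass the filter on low counts.

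Of the 16 translation factors 6 were higher (37.5%) and 3 lower (18.8%), against 24.9% and 23.7% of all genes tested, with a median of 0.06. MTIF2 and MTIF3, the mitochondrial initiation factors, went opposite ways. MTIF2 had 84.1, 83.4 and 87.5 CPM in NC and 134, 135 and 130.4 CPM in OE (log2 fold change 0.65, SE 0.05, edgeR adjusted p = 8.4e-10). MTIF3 had 25.1, 23.4 and 28.4 CPM in NC and 17.9, 18.8 and 16.9 CPM in OE (-0.52, SE 0.08, edgeR adjusted p = 2.3e-05). GFM1, an elongation factor, and MRRF, the ribosome recycling factor, rose by 0.37 and 0.34 (edgeR adjusted p = 3.0e-05 and 3.5e-05). OXA1L, the inner membrane insertase, fell by 0.25 on the log2 scale, and LRPPRC, which stabilises mitochondrial messenger RNAs, fell by 0.15 (edgeR adjusted p = 0.0081 and 0.023).

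Other gene sets were counted beside the mitochondrial ribosomal protein genes. Of 75 tested nuclear subunits of oxidative phosphorylation, the complexes that mitochondrial translation serves, 11 were higher (14.7%) and 24 lower (32.0%), with a median log2 fold change of -0.06. The shares of all genes tested were 24.9% and 23.7%. COX7B (-0.72), NDUFS5 (-0.55) and COX7A2 (-0.45) fell, with edgeR adjusted p from 5.2e-09 to 1.5e-06, while NDUFB9 (0.34), NDUFS6 (0.34) and UQCRFS1 (0.37) rose, with edgeR adjusted p from 4.2e-05 to 2.7e-04. Of 85 tested cytosolic ribosomal protein genes, 23 were higher (27.1%) and 9 lower (10.6%), with a median of 0.08. The share called higher lay near the 24.9% of all genes tested. The share called lower lay below the 23.7% of all genes tested and near the 8.97% of the mitochondrial ribosomal protein genes. No test was run between lists.

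**Figure D5:**
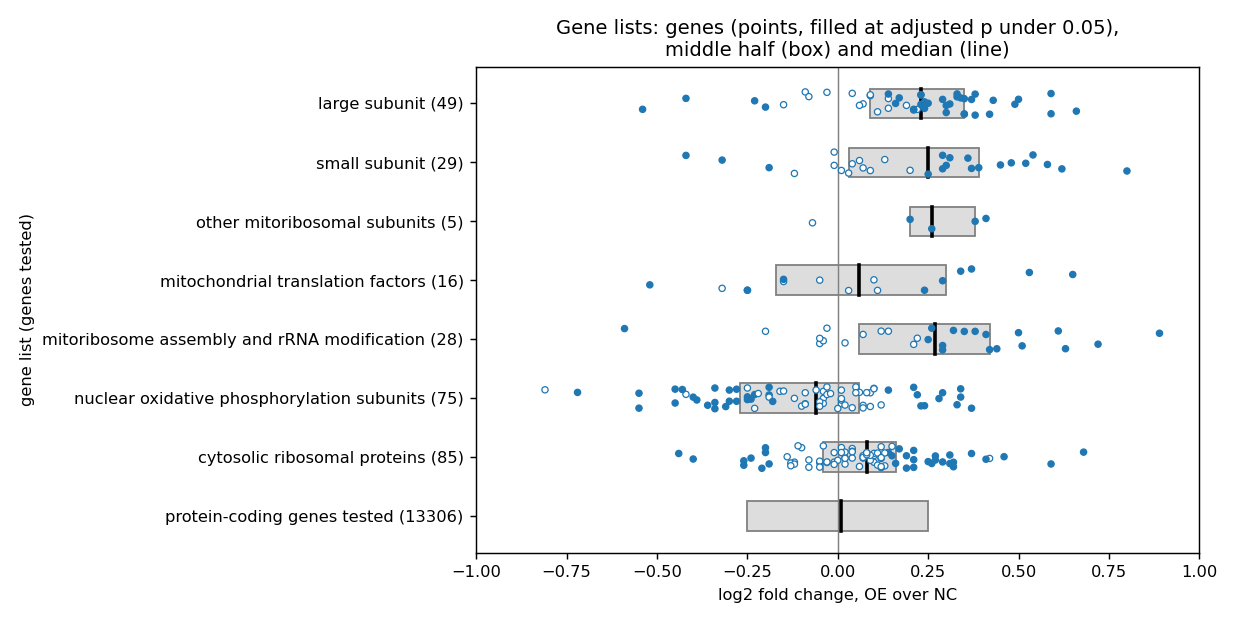
Log2 fold change, OE over NC, of each gene (points, filled at an adjusted p under 0.05) in the large and small mitochondrial subunits and 5 other lists, with quartiles (box) and median (line), beside all tested protein-coding genes. The medians of both subunits (0.23 and 0.25), of the other mitoribosomal subunits (0.26) and of the assembly genes (0.27) lie to the right of those of the oxidative phosphorylation subunits (-0.06) and cytosolic ribosomal proteins (0.08).

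The members are spread over 21 chromosomes, with 8 each on chromosomes 1, 2 and 17, so they do not share a locus. In 19 of them a protein-coding neighbour starts head to head, within 1000 bases and on the other strand. Of those 19 neighbours 7 were higher, 2 lower and 10 not called, with a median log2 fold change of 0.09. These shares are 36.8% and 10.5%, against 27.4% and 24.6% of all tested protein-coding genes. MRPL43 and TWNK, the mitochondrial DNA helicase, overlap at their starts and went opposite ways (-0.42 and 0.42, the latter with edgeR adjusted p = 1.1e-06). MRPS12 (0.25) and SARS2 (-0.35, edgeR adjusted p = 0.0018), the mitochondrial seryl-tRNA synthetase, start 181 bases apart and also went opposite ways. MRPL30 and MITD1, in contrast, both rose (0.34 and 0.37). A member pair, MRPL46 and MRPS11, starts 63 bases apart, and MRPL46 was called (0.25) while MRPS11 was not (-0.01). The pairs were named after their values had been seen, and without strand the reads of overlapping starts cannot be told apart.

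Overlap with other annotated genes bears on the counts. Among the 29 members that overlap no annotated gene, 15 rose (51.7%) and 1 fell (3.45%), with a median of 0.23. Among the 49 that do, 30 rose (61.2%) and 6 fell (12.2%), with a median of 0.24. The shares of all genes tested were 24.9% higher and 23.7% lower. In the 24 members that overlap a gene on the same strand, 12 rose and 5 fell (median 0.14). The share that rose lay above the 24.9% of all genes tested, and the share that fell (20.8%) lay near the 23.7%. The read counts of these 24 members are uncertain even where strand was used. Of the members 17 have a pseudogene of their name in the table, and apart from MRPS31P5 and MRPL45P2 (102 to 186 counts) these had few counts. The members have short transcripts, with a median canonical length of 1242 bases against 3336 for tested protein-coding genes, and of ordinary GC content (48.1% against 48.5%). Across the members the log2 fold change had a Spearman's rho of 0.131 with transcript length and -0.0418 with GC content. Across 13297 protein-coding genes these were 0.015 and -0.0709.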

How the data were processed

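RNA of 6 HK-2 samples was sequenced by the authors from a stranded mRNA library. The authors discarded reads with more than a set number of N bases, trimmed adaptors with FASTX-Toolkit and aligned to GRCh38 (HISAT2). They took gene counts from reads mapped to a single place, and whether counting used strand is not given in the sources used here. The submitters' processing notes name the builds GRCh38 and mm10, and the latter was not used here. The deposited counts (31369 genes) are not normalized, and the deposited FPKM values (30896 genes) were computed by the authors per transcript length and mapped fragments.

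From the counts, edgeR 4.0.16 in R 4.3.3 (filterByExpr, TMM, quasi-likelihood F-test) gave log2 fold changes and p-values adjusted by Benjamini-Hochberg over 15878 genes, with NC and OE taken from the labels and 3 samples per group. CPM came from the same library sizes. The biological coefficient of variation was 6.3%, and replicates differed by more than sampling noise. Depth was 34635770 to 39850802 counts per sample, and the lowest member count was 25. Members and lists were chosen with earlier results of these data known, so no list has a p-value. Genes were named by rule: the largest changes in each direction with groups not overlapping, the extremes of FPKM, the MRPS18 paralogs, members with known other roles, and up to 3 genes per direction of each other list. Other names complete the account of members or were chosen after their values were seen. DESeq2 1.42.0, limma 3.58.1 on log2(FPKM + 1) and log2(FPKM + 0.1), other normalizations and filters, offsets for GC content and length, and left-out samples were alternatives. Coordinates and overlaps came from GENCODE 44 and promoters from RefSeq.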

Additional observations from a re-analysis of the deposited data

How the results depend on the processing

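The counts of 45 members higher and 7 lower stayed between 40 and 55 and between 5 and 9 under every alternative but 1. In the test against a fold change of 1.2, 15 members were higher and 3 lower (MRPL23, MRPS14 and MRPL43), beside 10.7% and 11.8% of all genes. When 1 sample was left out, 40 to 49 members were higher and 5 to 7 lower, beside 21.7% to 23.6% and 20.2% to 22.7% of all genes. In the same fits the large subunit median was 0.22 to 0.27 and the small subunit median 0.23 to 0.31. Their difference of medians was -0.04 to 0.02 and the PPM1K log2 fold change 6.08 to 6.75. With GC and length offsets the counts were 55 and 5, beside 30.2% and 23.0% of all genes. The small subunit median was then 0.32 and the median of all genes 0.03 (the cause was not tested). With upper quartile normalization the counts were 41 and 9, beside 21.8% and 26.8% of all genes. With subunits assigned by structure the small subunit median was 0.19 and the difference of medians 0.05, so that its sign turned. The PPM1K log2 fold change was 2.90 by limma on log2(FPKM + 1). No setting took a member past a fold change of 2.

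The correlations of same-numbered samples between groups were -0.00319, -0.0663 and -0.0542. They gave no sign that the numbers pair the samples, but with so few samples per group they cannot exclude it. With the replicate block 42 members were higher and 6 lower, beside 22.7% and 21.8% of all genes, with medians of 0.23 and 0.24. MRPL20, MRPL48, MRPL49 and MRPS27 were then no longer called (edgeR adjusted p = 0.059 for MRPS27).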
